A study of Mus musculus with 18 samples.

Results

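The lacrimal glands (LGs) of NOD.H-2b mice were compared with those of BALB/c mice at 4 months of age (4M), the middle one of the 3 ages sampled, by bulk RNA-seq of 1 gland per mouse. The comparison held 6 of the 18 mice of the series, 3 of each strain, and all 6 were male. BALB/c mice were of the strain BALB/cJ and served as the control strain. NOD.H-2b mice were of the strain NOD.B10Sn-H2b/J, which carries the b haplotype of the H2 region, the mouse MHC, on the NOD background. The labels give no treatment for either strain. The strains differ across the genome and in the H2 haplotype, so that strain background and disease cannot be told apart in any strain difference below. The mice were taken by strain and age alone, and all genes with enough counts were tested.

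Sjögren's syndrome is an autoimmune disease in which lymphocytes gather in lacrimal and salivary glands, and NOD.H-2b mice are used as a model of it. Lymphocytes that enter a gland through activated vessels can organize into T and B cell areas, and interferon gamma from T cells drives antigen presentation and further recruitment in the tissue around them. The LG itself is built of acinar cells that secrete tear proteins and fluid on nerve signals, of ducts that carry them and of contractile myoepithelial cells.

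Each mouse gave between 49480781 and 67138830 counts at 4M, and each of the 6 libraries held a count for 22564 to 24695 genes. In all 18 mice the totals ran from 49480781 to 103936830 counts, the highest in BALB/c mouse 1 at 6M. Levels are given as CPM, the count scaled to the TMM-normalized library total, listed by mouse in the order 1, 2 and 3. The tissue label was checked against defining markers. The LG products Car6, Esp15 and Scgb2b3, given below, were expressed in every mouse, and Aqp5, the water channel of acinar cells, was between 108 and 145 CPM. Smgc, a salivary gland mucin, was at 0 in 5 mice and had a single count in the sixth, and Acta1, the actin of skeletal muscle, had no count in 4 of the 6 mice. Foxi1 of ionocytes and the nerve genes Th and Chat were at or near 0 in all 6 mice. Since whole glands were measured, fewer cells of a type and less RNA per cell cannot be told apart.

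The strains were far apart at 4M. Of the 17722 genes tested, 2767 were upregulated (15.6% of those tested) and 837 were downregulated (4.72%) in NOD.H-2b. The test was edgeR's quasi-likelihood test, and calls needed an adjusted p under 0.05 and at least a 2-fold difference. Without the fold threshold 4143 genes were higher (23.4%) and 3402 lower (19.2%), and the median log2 fold change of all genes tested was 0.00. The calls were therefore uneven in size, with 1757 genes upregulated at least 4-fold and 595 at least 16-fold, against 287 and 106 genes downregulated by as much. Among the calls 76.78% were higher in NOD.H-2b. With the epithelial gene list as the scale instead of TMM, the median of all genes moved by 0.41 on the log2 scale and the split became 3879 upregulated and 464 downregulated genes, 89.32% of them higher. On that scale genes with log2 fold changes between -0.41 and 0 turn from lower to higher. All NOD.H-2b mice were above all BALB/c mice for 28.7% of genes and below them for 26.6%, and in the other genes the strains overlapped. A lack of overlap, given for single genes below, was thus common among all genes.

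The leading log2 fold change between 2 mice, taken over the 500 genes that differ most, was 5.07 to 6.04 between the strains. Within a strain it was 1.96 to 2.14 among BALB/c mice and 1.76 to 1.91 among NOD.H-2b mice. The Spearman correlation of gene levels between 2 mice was 0.985 to 0.992 within a strain and 0.894 to 0.933 between strains. No mouse sat with the other strain on either measure. The p-values rest on the spread between 3 mice per strain.

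**Figure D1:**
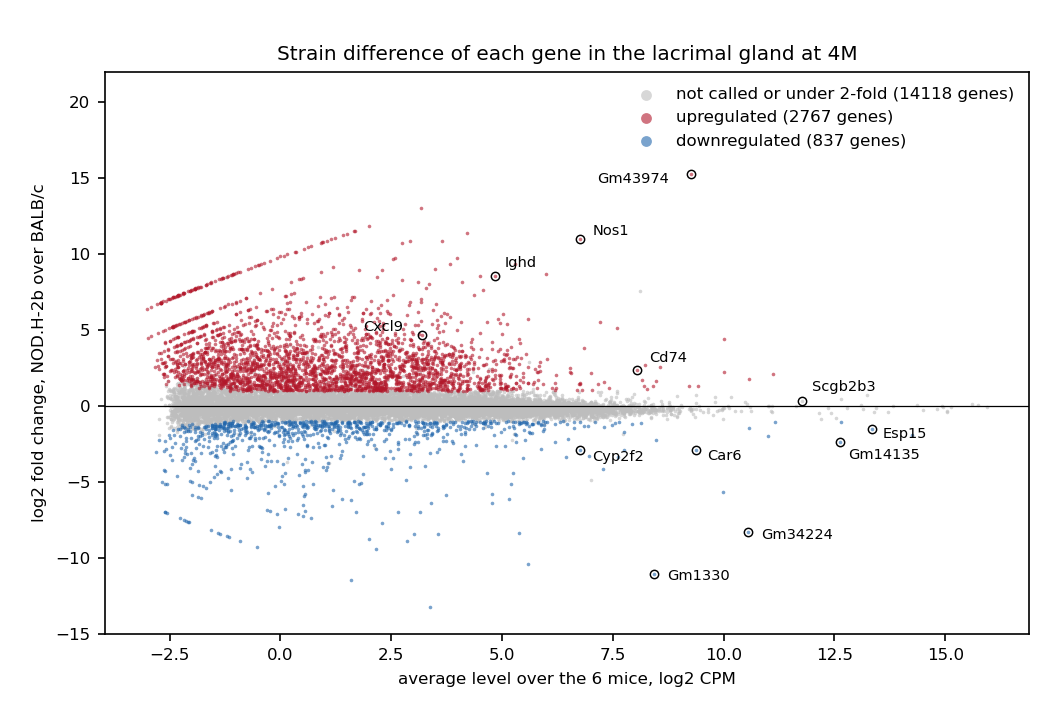
Average level over the 6 mice (log2 CPM, horizontal) against the log2 fold change of NOD.H-2b over BALB/c at 4M (vertical) for the 17722 genes tested, 1 point per gene. The 2767 upregulated genes are red, the 837 downregulated genes blue and the others grey, and circled genes are named. Ighd, Nos1 and Gm43974 stand far above the line at 0, while Gm1330, Gm34224 and Car6 stand below it.

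T cell genes were the most uniform group. All 32 T cell genes tested were upregulated, with a median log2 fold change of 4.45, beside 15.6% and 0.00 over all genes. Their summed level was 9.34 to 25.2 CPM in the BALB/c mice and 199.6 to 375 CPM in the NOD.H-2b mice. Cd3e (ENSMUSG00000032093), a signalling chain of the T cell receptor complex, was at 0.347, 0.161 and 1.11 CPM in the BALB/c mice and 21.6, 12.2 and 12.2 CPM in the NOD.H-2b mice (log2 fold change 4.75 ± 0.672 (SE), edgeR adjusted p = 0.00371). Cd4, the coreceptor of helper T cells, was at 0.310, 0.161 and 1.15 CPM in the BALB/c mice and 34.2, 17.4 and 16.8 CPM in the NOD.H-2b mice (log2 fold change 5.31 ± 0.746 (SE), edgeR adjusted p = 0.00451). Cd8a, the coreceptor of cytotoxic T cells, was at 0.0365, 0.0805 and 0.532 CPM in the BALB/c mice and 6.66, 3.72 and 3.93 CPM in the NOD.H-2b mice (log2 fold change 4.34 ± 0.770 (SE), edgeR adjusted p = 0.00613). In each of these genes the strains did not overlap, NOD.H-2b mouse 1 was the highest of its strain and BALB/c mouse 3 the highest of its own. With BALB/c mouse 3 left out, the log2 fold changes of Cd3e, Cd4 and Cd8a were 5.88, 6.56 and 6.31, and the median of the list was 5.63. Ctla4, an inhibitory receptor of activated T cells, had 1 count in the BALB/c mice together and 110 in the NOD.H-2b mice, a ratio of 104.2 per normalized total (95% counting interval 18.32 to 4154). It was also the member with the largest fitted change among T cell genes and inhibitory genes.

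Helper T cell genes rose in 11 of 16 tested, with a median of 2.90 (3.92 without BALB/c mouse 3). Tbx21, the transcription factor of Th1 cells, was at 0.0913, 0.0201 and 0.177 CPM in the BALB/c mice and 2.21, 1.06 and 1.55 CPM in the NOD.H-2b mice (log2 fold change 3.95 ± 0.526 (SE), edgeR adjusted p = 0.000285), or 4.75 without BALB/c mouse 3. Stat4, which carries the IL-12 signal, and Foxp3, the factor of regulatory T cells, rose by 5.23 and 5.96 on the log2 scale. Gata3 of Th2 cells rose by 2.24. Ifng, the gene of interferon gamma, was under the count needed for a test. It had 1 count in the BALB/c mice together and 36 in the NOD.H-2b mice, at 0.317, 0.0921 and 0.179 CPM, a ratio of 34.11 (95% counting interval 5.744 to 1384). Il21, a cytokine of follicular helper T cells, had no count in BALB/c and was at 1.77, 0.292 and 0.179 CPM in NOD.H-2b, most of it in mouse 1. It was at least 12.35-fold higher against a floor of 3 counts per BALB/c mouse, but was not called (edgeR adjusted p = 0.0595, or 0.00289 without NOD.H-2b mouse 1 and 0.0455 without NOD.H-2b mouse 3). The call of Il21 depended on the setting. DESeq2 called it (adjusted p = 7.76e-07), and so did edgeR in a fit of all 18 mice (0.0115). With the replicate number as a block or with the epithelial scale edgeR called it as well (adjusted p = 0.00170 and 0.0401). Il17a, Il17f and Il22 had no count in any of the 6 mice, and Il4 and Il10 were under the count needed for a test.

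Cytotoxic genes rose in 16 of 19 tested, with a median of 2.87 (3.56 without BALB/c mouse 3). Prf1, the pore protein of killer cells, was at 0.183, 0.0201 and 0.384 CPM in the BALB/c mice and 1.25, 1.49 and 1.99 CPM in the NOD.H-2b mice (log2 fold change 2.92 ± 0.594 (SE), edgeR adjusted p = 0.00450). Nkg7, a granule membrane protein of cytotoxic cells, was at 0.0548, 0.302 and 0.724 CPM in the BALB/c mice and 2.93, 2.63 and 2.68 CPM in the NOD.H-2b mice (log2 fold change 2.87 ± 0.620 (SE), edgeR adjusted p = 0.00910). Cst7, a cystatin of killer cells, had the largest change of the list (0.0548, 0 and 0.103 CPM in the BALB/c mice and 2.28, 1.23 and 1.43 CPM in the NOD.H-2b mice). The strains did not overlap in any of these 3 genes. With BALB/c mouse 3 left out, the log2 fold changes of Prf1, Nkg7 and Cst7 were 3.88, 3.96 and 5.74. Gzmb, which encodes granzyme B, was under the count needed for a test, at 0.164, 0.0403 and 0.0295 CPM in the BALB/c mice and 0.287, 0.123 and 0.278 CPM in the NOD.H-2b mice, and here the strains overlapped.

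B cell genes had the highest median of the 46 gene lists. Of 28 tested, 27 were upregulated, with a median log2 fold change of 5.51, and their summed level was 44.3 to 62.5 CPM in the BALB/c mice and 758 to 1361 CPM in the NOD.H-2b mice. Ms4a1, the gene of CD20, was at 0, 0.0403 and 0.0739 CPM in the BALB/c mice and 43.3, 22.3 and 19.2 CPM in the NOD.H-2b mice (edgeR adjusted p = 0.000305). Cd79a, a signalling chain of the B cell receptor that plasma cells also keep, was at 0.511, 0.443 and 0.724 CPM in the BALB/c mice and 38.3, 19.8 and 18.5 CPM in the NOD.H-2b mice (log2 fold change 5.48 ± 0.422 (SE), edgeR adjusted p = 0.000243). All 3 BALB/c mice were under 1 CPM in both genes, and NOD.H-2b mouse 1 was the highest of its strain. Pax5 (ENSMUSG00000014030, chr4:44524757-44710487 on GRCm38), the transcription factor of B cell identity, had 2 counts in the BALB/c mice and 6924 in the NOD.H-2b mice, at 56.9, 29.0 and 25.2 CPM, a ratio per normalized total of 3281 (95% counting interval 907.8 to 27090). Without BALB/c mouse 3, which held 5 of the 7 Ms4a1 counts of its strain, the log2 fold change of Ms4a1 was 10.36 instead of 9.37.

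The germinal centre list was mixed. It rose in 7 of 14 tested, with a median of 1.86. Cxcr5, the receptor that leads B cells and follicular helper T cells to follicles, had 3 counts in the BALB/c mice, all in mouse 3, and 1796 in the NOD.H-2b mice, at 14.7, 7.08 and 7.19 CPM, a ratio of 567.3 (95% counting interval 193.8 to 2753). Bcl6, the factor of germinal centre B cells and follicular helper T cells, was at 134, 60.6 and 86.5 CPM in the BALB/c mice and 41.98, 45.8 and 95.7 CPM in the NOD.H-2b mice (edgeR adjusted p = 0.376). The strains overlapped for Bcl6, as they did for Fas (5.60, 5.13 and 4.42 CPM in the BALB/c mice and 7.02, 6.05 and 4.99 CPM in the NOD.H-2b mice). S1pr2, which keeps B cells in the follicle, was higher by less than 2-fold (log2 fold change 0.59 ± 0.191 (SE), edgeR adjusted p = 0.0304).

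Plasma cell and immunoglobulin genes rose in 15 of 24 tested, with a median of 1.94, and their summed level was 1977 to 2792 CPM in the BALB/c mice and 5953 to 7021 CPM in the NOD.H-2b mice. Jchain, the chain that joins IgA and IgM, was at 163, 124 and 229 CPM in the BALB/c mice and 466, 682 and 481 CPM in the NOD.H-2b mice (log2 fold change 1.66 ± 0.280 (SE), edgeR adjusted p = 0.00596). Mzb1, a chaperone of antibody-secreting cells, was at 2.68, 1.69 and 3.37 CPM in the BALB/c mice and 21.6, 14.8 and 12.4 CPM in the NOD.H-2b mice (log2 fold change 2.64 ± 0.312 (SE), edgeR adjusted p = 0.000758). Among constant genes, Igha rose by 1.76, Igkc by 2.22, Ighm by 5.53 and Ighg2b by 5.74 on the log2 scale. Ighg2c, an IgG constant gene, was at 1.497, 0.685 and 0.724 CPM in the BALB/c mice and 77.8, 63.3 and 49.6 CPM in the NOD.H-2b mice (log2 fold change 6.04 ± 0.355 (SE), edgeR adjusted p = 0.000109). The log2 fold changes of the IgM and IgG genes were above that of Igha, the constant gene of IgA, the antibody of mucosal secretions. Reads of both strains were aligned to 1 genome. The part of strain variants in the counts of single constant genes, Ighg2c among them, was not tested. Without BALB/c mouse 2 or NOD.H-2b mouse 2 the median of the list was 1.68 or 1.57. Ighd (ENSMUSG00000104213), the constant gene of IgD on naive B cells, was at 0.0548, 0.161 and 0.207 CPM in the BALB/c mice and 86.2, 48.8 and 34.8 CPM in the NOD.H-2b mice (log2 fold change 8.59 ± 0.634 (SE), edgeR adjusted p = 0.000405). Pigr, the receptor that carries IgA across the epithelium, was at 368, 423 and 403 CPM in the BALB/c mice and 242, 271 and 377 CPM in the NOD.H-2b mice (edgeR adjusted p = 0.0690).

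Immunoglobulin genes together took 0.130, 0.0940 and 0.212% of all counts in the BALB/c mice and 0.794, 0.774 and 0.611% in the NOD.H-2b mice, on average 0.145% ± 0.0604 and 0.726% ± 0.101 (SD, n = 3 each). The two-sided exact permutation test gave p = 0.1, the smallest that 3 against 3 allows (adjusted p = 0.175 over 7 families). T cell receptor genes took 0.000134, 8.11e-05 and 0.000423% of all counts in the BALB/c mice and 0.00711, 0.00417 and 0.00400% in the NOD.H-2b mice, on average 0.000213% ± 0.000184 and 0.00509% ± 0.00175 (SD, n = 3 each) (exact p = 0.1, adjusted p = 0.175). Of 97 heavy chain variable genes (Ighv) tested, 62 were upregulated and 7 downregulated, and of 91 kappa variable genes (Igkv) tested 50 were upregulated and 10 downregulated. The number of Ighv genes with a count overlapped between the strains, at 115 to 127 per BALB/c mouse and 124 to 126 per NOD.H-2b mouse. For Igkv it was 83 to 86 and 109 to 122. Alpha variable genes of the T cell receptor (Trav) with a count numbered 1 to 9 per BALB/c mouse and 38 to 53 per NOD.H-2b mouse, and all 9 beta variable genes (Trbv) tested were upregulated. All 44 T cell receptor segments tested were upregulated. These segments were near 0 in BALB/c, so they could pass the count filter mainly through the NOD.H-2b mice. Of the 35 Trbv genes 9 were tested, and of the 128 Trav genes 1. The share upregulated was thus largely set by the filter, for the 9 Trbv genes as well, and is not a result of its own. Of 215 immunoglobulin segments 133 were upregulated and 17 downregulated (61.9% and 7.91%). Over all genes the shares were 15.6% and 4.72%. Segments share sequence and differ between strains, so counts of single segments are uncertain.

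The BAFF and APRIL system, which keeps B and plasma cells alive, rose in 6 of 7 genes tested with a median of 2.15. The ligand gene Tnfsf13b, which encodes BAFF, was at 1.11, 0.846 and 0.916 CPM in the BALB/c mice and 3.32, 2.58 and 2.64 CPM in the NOD.H-2b mice (log2 fold change 1.57 ± 0.217 (SE), edgeR adjusted p = 0.000337). The receptor gene Tnfrsf13c had 4 counts in the BALB/c mice and 1660 in the NOD.H-2b mice, at 12.7, 7.46 and 6.62 CPM, a ratio of 393.3 (95% counting interval 153.3 to 1445). The strains did not overlap in either gene, and the ligand rose 2.97-fold. Tnfrsf13b and Tnfrsf17, the other receptors of the system, rose by 3.00 and 2.15 on the log2 scale.

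Genes of lymphoid tissue and its chemokines rose in 16 of 22 tested. The median log2 fold change was 3.96, or 3.86 with the 3 genes that had no count in 1 strain set at their bound. Cxcl13, the chemokine that draws B cells through CXCR5, was at 0.329, 0.644 and 0.222 CPM in the BALB/c mice and 15.8, 11.8 and 11.6 CPM in the NOD.H-2b mice (log2 fold change 5.08 ± 0.332 (SE), edgeR adjusted p = 2.10e-05). Ltb, the lymphotoxin that organizes lymphoid tissue, was at 0.237, 0.222 and 1.05 CPM in the BALB/c mice and 17.6, 8.29 and 10.2 CPM in the NOD.H-2b mice (log2 fold change 4.51 ± 0.686 (SE), edgeR adjusted p = 0.00460). Both were in every NOD.H-2b mouse above every BALB/c mouse, and without BALB/c mouse 3 the log2 fold change of Ltb was 5.69. Ccl19, a chemokine for CCR7 on T cells and dendritic cells, had 2 counts in BALB/c, both in mouse 3, and 54 in NOD.H-2b, a ratio of 25.58 (95% counting interval 6.748 to 216.6), and it has near-identical copies in the genome that may share its reads. Glycam1 (ENSMUSG00000022491, chr15:103562759-103565081), a mucin made by high endothelial venules, had no count in BALB/c and was at 6.62, 4.95 and 5.01 CPM in NOD.H-2b, at least 91.42-fold higher against a floor of 3 counts per mouse. Chst4, a sulfotransferase, and Tnfsf11, the gene of RANKL, likewise had no count in BALB/c and were at 0.498, 0.276 and 0.517 CPM and 1.24, 0.860 and 0.715 CPM in NOD.H-2b. Ltbr, the lymphotoxin receptor, was lower by less than 2-fold (log2 fold change -0.40 ± 0.105 (SE), edgeR adjusted p = 0.0114), a difference that vanished with the epithelial scale. Ccl21a and Madcam1 had no count in any mouse.

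Most MHC class II genes rose, and 1 had no count in NOD.H-2b. Of 20 tested, 15 were upregulated and 1 was downregulated, with a median of 2.48 (2.86 without BALB/c mouse 3). Cd74, the invariant chain, was at 70.6, 64.2 and 124 CPM in the BALB/c mice and 565, 383 and 369.5 CPM in the NOD.H-2b mice (log2 fold change 2.35 ± 0.344 (SE), edgeR adjusted p = 0.00428). H2-Ab1, the beta chain of the A molecule, was at 25.0, 24.0 and 48.4 CPM in the BALB/c mice and 187, 135 and 138 CPM in the NOD.H-2b mice (log2 fold change 2.24 ± 0.346 (SE), edgeR adjusted p = 0.00539). Ciita, the master regulator of class II genes, was at 4.44, 3.58 and 9.93 CPM in the BALB/c mice and 83.8, 56.6 and 45.9 CPM in the NOD.H-2b mice (log2 fold change 3.36 ± 0.513 (SE), edgeR adjusted p = 0.00641). The strains did not overlap, with NOD.H-2b mouse 1 and BALB/c mouse 3 the highest of their strains. The accessory genes H2-Oa and H2-Ob, which B cells express, rose by 7.15 and 6.07, and Rfxap, a subunit of the class II promoter complex, was at -0.17 (edgeR adjusted p = 0.280). H2-Ea-ps (ENSMUSG00000036322, chr17:34341959-34344645), the E alpha gene, whose expression is known to depend on the H2 haplotype, was at 14.7, 16.3 and 31.4 CPM in BALB/c and had no count in NOD.H-2b, at least 348.6-fold lower against a floor of 3 counts per mouse.

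Class I and peptide loading genes rose in 19 of 23 tested, with a median of 1.88. B2m, the light chain shared by class I molecules, was at 158, 227 and 197 CPM in the BALB/c mice and 486, 435 and 517 CPM in the NOD.H-2b mice (log2 fold change 1.30 ± 0.130 (SE), edgeR adjusted p = 0.000105). Tap1, the peptide transporter, was at 8.89, 5.76 and 9.73 CPM in the BALB/c mice and 81.2, 54.9 and 68.0 CPM in the NOD.H-2b mice (log2 fold change 3.06 ± 0.246 (SE), edgeR adjusted p = 0.000243). Psmb8, a subunit of the immunoproteasome, was at 2.67, 2.70 and 3.78 CPM in the BALB/c mice and 33.7, 22.4 and 27.5 CPM in the NOD.H-2b mice (log2 fold change 3.19 ± 0.198 (SE), edgeR adjusted p = 1.33e-05). Every NOD.H-2b mouse was above every BALB/c mouse in these 3 genes. H2-Q7, a class Ib gene, was at 1.13, 1.57 and 3.97 CPM in the BALB/c mice and 82.9, 45.1 and 57.0 CPM in the NOD.H-2b mice, the largest change of the list (log2 fold change 4.76, or 5.51 without BALB/c mouse 3). The chaperones Canx and Pdia3 were lower by less than 2-fold (-0.21 and -0.33), and higher with the epithelial scale. In the H2 region from H2-K1 to H2-M3 (chr17:33996017-37274484), 46 of the 138 genes tested were upregulated and 13 downregulated, beside 15.6% and 4.72% of all genes. H2 genes are near-identical copies whose alleles differ between the strains, so their single counts are uncertain.

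Interferon genes followed. Of 37 interferon gamma genes tested 33 were upregulated, with a median of 2.90, and their summed level was 312 to 347 CPM in the BALB/c mice and 809.9 to 1130 CPM in the NOD.H-2b mice. Irf1, a transcription factor induced by interferon gamma, was at 20.1, 19.1 and 20.8 CPM in the BALB/c mice and 53.3, 43.7 and 51.0 CPM in the NOD.H-2b mice (log2 fold change 1.30 ± 0.0893 (SE), edgeR adjusted p = 6.18e-06). Gbp2, a guanylate binding protein, was at 3.32, 2.48 and 3.71 CPM in the BALB/c mice and 30.8, 23.4 and 37.9 CPM in the NOD.H-2b mice (log2 fold change 3.27 ± 0.222 (SE), edgeR adjusted p = 4.04e-05). Every NOD.H-2b mouse exceeded every BALB/c mouse in both genes, and NOD.H-2b mouse 2 was the lowest of its strain in each. Cxcl9, the chemokine that draws cells with CXCR3, was at 0.712, 0.0201 and 1.23 CPM in the BALB/c mice and 18.1, 12.4 and 22.2 CPM in the NOD.H-2b mice. It was called with all mice (log2 fold change 4.68 ± 0.832 (SE), edgeR adjusted p = 0.0106), but edgeR's adjusted p was 0.0537 without BALB/c mouse 1. Without BALB/c mouse 3 its log2 fold change was 5.52. Cxcl10, a second ligand of CXCR3, had the largest change of the list, at 0.475, 0.0805 and 0.236 CPM in the BALB/c mice and 6.74, 4.19 and 11.1 CPM in the NOD.H-2b mice (log2 fold change 4.77 ± 0.617 (SE), edgeR adjusted p = 0.00154), or 5.42 without BALB/c mouse 1, and it overlaps Art3 on the other strand.

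Type I interferon genes rose in 31 of 38 tested and fell in 1, with a median of 2.05. Irf7, the amplifier of type I interferon, was at 6.79, 6.71 and 5.82 CPM in the BALB/c mice and 40.3, 18.7 and 43.8 CPM in the NOD.H-2b mice (log2 fold change 2.41 ± 0.355 (SE), edgeR adjusted p = 0.00373). Isg15, a ubiquitin-like modifier, was at 1.00, 0.564 and 0.635 CPM in the BALB/c mice and 3.32, 2.06 and 5.70 CPM in the NOD.H-2b mice (log2 fold change 2.32 ± 0.406 (SE), edgeR adjusted p = 0.00216). Mx1, an antiviral GTPase, was at 1.19, 0.443 and 1.31 CPM in the BALB/c mice and 10.1, 6.36 and 12.3 CPM in the NOD.H-2b mice (log2 fold change 3.26 ± 0.431 (SE), edgeR adjusted p = 0.00139). NOD.H-2b mouse 2 was again the lowest of its strain in each, and above all BALB/c mice. Zbp1, a sensor of nucleic acids, was highest in fold change, at 1.15, 0.463 and 1.48 CPM in the BALB/c mice and 22.3, 12.5 and 22.3 CPM in the NOD.H-2b mice (log2 fold change 4.17 ± 0.459 (SE), edgeR adjusted p = 0.00111). Ifi44l fell by 3.98 on the log2 scale, against the direction of the other called members, while its neighbour in name, Ifi44, rose by 1.10. The list shares targets with interferon gamma, and the responses to both interferons cannot be told apart from these genes.

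The promoters of these genes show where their letters match the sites of the interferon factors. RefSeq windows on GRCm38.p6, from 250 bases before to 50 after a start, were searched on both strands for TTCNNNGAA, the gamma-activated site (GAS), and for GAAANNGAA, the core of the interferon response element (ISRE). The interferon gamma list matched with 26 of its 40 genes in 30 windows, of which 9 held a GAS match (30%) and 14 an ISRE core match (46.7%). Both were found in 6 windows and shared no bases. In the type I list, 29 of 38 genes matched in 34 windows, with a GAS match in 7 (20.6%) and an ISRE core match in 17 (50%), both in 3 windows, in 1 of which they shared bases. Over all 32851 windows of the table, 8.3% held a GAS match and 8.56% an ISRE core match. Shown are 3 windows of genes described above, with the match in capitals, read along the strand of the gene. In Irf1 (chr11:53769764-53770063, + strand) the capitals mark a GAS match that began 90 bases before the start, and a second Irf1 window held no match. In Cxcl9 (chr5:92328030-92328329, - strand) they mark an ISRE core match that began 175 bases before the start. In Gbp2 (chr3:142620413-142620712, + strand) they mark an ISRE core match on the other strand that began 58 bases before the start. A match is a description of the letters and not evidence of binding.
Irf1: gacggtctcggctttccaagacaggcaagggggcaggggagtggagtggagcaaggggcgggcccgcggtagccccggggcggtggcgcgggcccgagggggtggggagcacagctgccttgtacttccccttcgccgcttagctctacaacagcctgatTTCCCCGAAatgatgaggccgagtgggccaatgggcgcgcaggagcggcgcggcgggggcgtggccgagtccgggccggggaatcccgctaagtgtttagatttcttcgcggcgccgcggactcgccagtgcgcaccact
Cxcl9: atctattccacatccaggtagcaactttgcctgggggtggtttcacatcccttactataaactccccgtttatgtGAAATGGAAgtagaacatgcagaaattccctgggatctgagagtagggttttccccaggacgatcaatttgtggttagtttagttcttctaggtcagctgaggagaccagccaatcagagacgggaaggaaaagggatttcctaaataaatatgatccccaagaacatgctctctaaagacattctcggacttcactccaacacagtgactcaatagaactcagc
Gbp2: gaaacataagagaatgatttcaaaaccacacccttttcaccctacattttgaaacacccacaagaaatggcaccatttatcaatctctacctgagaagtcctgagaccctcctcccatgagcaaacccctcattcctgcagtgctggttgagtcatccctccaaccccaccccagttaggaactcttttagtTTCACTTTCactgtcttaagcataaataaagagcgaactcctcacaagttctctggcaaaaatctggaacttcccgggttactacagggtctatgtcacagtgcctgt

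Macrophage genes of the TYROBP network rose in 41 of 51 tested, fell in 1 and had a median of 2.17 (2.55 without BALB/c mouse 3). Tyrobp, the adaptor of myeloid activating receptors, was at 1.88, 2.38 and 4.74 CPM in the BALB/c mice and 11.3, 11.8 and 11.3 CPM in the NOD.H-2b mice (log2 fold change 1.92 ± 0.330 (SE), edgeR adjusted p = 0.00372). C1qc, a chain of C1q made by macrophages, was at 6.55, 6.97 and 12.0 CPM in the BALB/c mice and 31.6, 27.6 and 32.0 CPM in the NOD.H-2b mice (log2 fold change 1.83 ± 0.243 (SE), edgeR adjusted p = 0.00139). Itgax, the gene of CD11c on dendritic cells and activated macrophages, was at 1.37, 1.83 and 4.30 CPM in the BALB/c mice and 17.6, 13.0 and 11.4 CPM in the NOD.H-2b mice (log2 fold change 2.47 ± 0.471 (SE), edgeR adjusted p = 0.00959). BALB/c mouse 3 was the highest of its strain in each, below all NOD.H-2b mice, and without it the log2 fold change of Itgax was 3.12. Was, a regulator of actin in blood cells, rose most (log2 fold change 3.58 ± 0.434 (SE), edgeR adjusted p = 0.000819, or 4.26 without BALB/c mouse 3). Members did not all move. Csf1r, the receptor that macrophages depend on, was higher by less than 2-fold (log2 fold change 0.78), Mrc1 and Mertk were not called (0.34 and 0.02), and Cd163, a marker of resident macrophages, was lower (-0.70).

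Dendritic cell genes rose in 15 of 20 tested, with a median of 2.22 (2.72 without BALB/c mouse 3). Flt3, the receptor for their growth factor, was at 1.46, 1.03 and 2.20 CPM in the BALB/c mice and 11.7, 6.54 and 5.82 CPM in the NOD.H-2b mice (log2 fold change 2.34 ± 0.372 (SE), edgeR adjusted p = 0.00230). Xcr1, of cross-presenting dendritic cells, was at 0.0730, 0.121 and 0.354 CPM in the BALB/c mice and 1.33, 0.891 and 0.914 CPM in the NOD.H-2b mice (log2 fold change 2.45 ± 0.501 (SE), edgeR adjusted p = 0.00314). Siglech, of plasmacytoid dendritic cells, was at 1.24, 1.37 and 1.76 CPM in the BALB/c mice and 9.23, 4.44 and 5.03 CPM in the NOD.H-2b mice (log2 fold change 2.09 ± 0.302 (SE), edgeR adjusted p = 0.000739). No mouse of one strain reached the range of the other. Lamp3, of mature dendritic cells, had no count in BALB/c and was at 0.967, 0.353 and 0.437 CPM in NOD.H-2b, at least 9.696-fold higher against a floor of 3 counts per mouse. Without BALB/c mouse 3 the log2 fold change of Xcr1 was 3.41.

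Complement genes rose in 14 of 27 tested, with a median of 1.12. C3, the central component, was at 67.5, 73.8 and 91.8 CPM in the BALB/c mice and 286, 219 and 204 CPM in the NOD.H-2b mice (log2 fold change 1.61 ± 0.164 (SE), edgeR adjusted p = 0.000296). C4b, of the classical pathway, was at 12.4, 14.7 and 20.9 CPM in the BALB/c mice and 102, 95.1 and 95.3 CPM in the NOD.H-2b mice (log2 fold change 2.61 ± 0.192 (SE), edgeR adjusted p = 0.000114). Cfb, of the alternative pathway, was at 0.128, 0.141 and 0.414 CPM in the BALB/c mice and 1.24, 0.798 and 1.03 CPM in the NOD.H-2b mice (log2 fold change 2.11 ± 0.458 (SE), edgeR adjusted p = 0.00429), or 2.91 without BALB/c mouse 3. C3 and C4b were highest in NOD.H-2b mouse 1 and every NOD.H-2b mouse was above every BALB/c mouse. Cr2, the complement receptor of B cells, had the largest change, at 0.0730, 0 and 0.0443 CPM in the BALB/c mice and 33.6, 17.5 and 15.4 CPM in the NOD.H-2b mice (log2 fold change 9.02, or 9.64 without BALB/c mouse 1). C2, of the classical pathway, was not called (0.17).

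Cytokine and receptor genes rose in 21 of 32 tested and fell in 1, with a median of 1.84. Tnf was at 0.0913, 0.282 and 0.606 CPM in the BALB/c mice and 3.62, 3.35 and 3.24 CPM in the NOD.H-2b mice (log2 fold change 3.33 ± 0.476 (SE), edgeR adjusted p = 0.000831), or 4.19 without BALB/c mouse 3. Il1b, the inflammasome cytokine, was at 0.402, 0.523 and 1.24 CPM in the BALB/c mice and 2.60, 1.23 and 3.87 CPM in the NOD.H-2b mice and overlapped between the strains, although it was called (edgeR adjusted p = 0.0362). Without BALB/c mouse 1, BALB/c mouse 2, NOD.H-2b mouse 1 or NOD.H-2b mouse 3 the adjusted p of Il1b by edgeR was 0.104, 0.117, 0.106 or 0.0780, and without BALB/c mouse 3 its log2 fold change was 2.46. Il1rn, the antagonist of the IL-1 receptor, had 5 counts in BALB/c, 3 of them in mouse 2, and 324 in NOD.H-2b, a ratio of 61.4 (95% counting interval 26.04 to 190.4). Its fitted log2 fold change, the largest of the list, was 5.87, or 6.63 without BALB/c mouse 2. Il1r2, the decoy receptor, fell by 1.41 on the log2 scale. Il6 was under the count needed for a test, with 18 counts in NOD.H-2b and none in BALB/c.

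Chemokine genes for myeloid cells and neutrophil genes rose in 17 of 23 tested, with a median of 2.14. Ccl8, a chemokine for monocytes and T cells, was at 2.81, 5.13 and 5.89 CPM in the BALB/c mice and 34.2, 36.0 and 30.0 CPM in the NOD.H-2b mice (log2 fold change 2.85 ± 0.269 (SE), edgeR adjusted p = 0.000383). Ccl20, the ligand of CCR6, was at 0.0365, 0.0403 and 0.0591 CPM in the BALB/c mice and 1.95, 1.43 and 1.35 CPM in the NOD.H-2b mice (log2 fold change 5.03 ± 0.393 (SE), edgeR adjusted p = 1.27e-05). The neutrophil gene S100a8 and the chemokine gene Cxcl5 were near 0 in both strains. S100a8 had 19 counts and Cxcl5 26 counts in NOD.H-2b, and neither had any in BALB/c. Cd177, another neutrophil gene, was upregulated, with 108 counts in NOD.H-2b and 0 in BALB/c. It was at least 9.834-fold higher against a floor of 3 counts per mouse.

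Adhesion genes rose in 15 of 22 tested, with a median of 2.64. Vcam1, the vessel ligand of lymphocyte integrins, was at 1.44, 1.83 and 3.03 CPM in the BALB/c mice and 21.2, 12.7 and 13.9 CPM in the NOD.H-2b mice (log2 fold change 2.91 ± 0.337 (SE), edgeR adjusted p = 0.000797). Icam1, the ligand of LFA-1, was at 2.15, 1.89 and 2.60 CPM in the BALB/c mice and 22.8, 14.3 and 17.2 CPM in the NOD.H-2b mice (log2 fold change 3.02 ± 0.199 (SE), edgeR adjusted p = 9.56e-06). Itgal, the LFA-1 chain on leukocytes, was at 2.67, 1.47 and 6.41 CPM in the BALB/c mice and 48.6, 28.8 and 32.2 CPM in the NOD.H-2b mice (log2 fold change 3.35 ± 0.616 (SE), edgeR adjusted p = 0.0122). The ligands and the integrin rose with no overlap between the strains. For Itgal edgeR's adjusted p was 0.0559 without BALB/c mouse 1, and its log2 fold change was 4.13 without BALB/c mouse 3.

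Genes of death receptors, apoptosis and pyroptosis rose in 19 of 39 tested and fell in 1, with a median of 0.94. Gsdmd, the pore protein of pyroptosis, was at 2.21, 1.73 and 3.15 CPM in the BALB/c mice and 11.1, 9.23 and 9.18 CPM in the NOD.H-2b mice (log2 fold change 2.05 ± 0.208 (SE), edgeR adjusted p = 6.51e-05). Fas was not called (edgeR adjusted p = 0.237), whereas Fasl, its ligand on cytotoxic cells, rose by 3.40. Casp6 fell by 1.53 on the log2 scale. Bcl2a1b, a survival gene of blood cells with near-identical copies, had the largest change (log2 fold change 4.26 ± 0.499 (SE), edgeR adjusted p = 0.000132).

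Inhibitory receptors and ligands rose in 20 of 21 tested, with a median of 3.47. Pdcd1, the gene of PD-1, was at 0.0548, 0.0403 and 0.103 CPM in the BALB/c mice and 4.89, 2.50 and 2.72 CPM in the NOD.H-2b mice (log2 fold change 5.57 ± 0.432 (SE), edgeR adjusted p = 1.24e-05). Cd274, its ligand PD-L1, was at 0.840, 0.765 and 1.11 CPM in the BALB/c mice and 12.9, 8.12 and 9.44 CPM in the NOD.H-2b mice (log2 fold change 3.48 ± 0.224 (SE), edgeR adjusted p = 4.13e-06). Receptor and ligand were higher in all 3 NOD.H-2b mice than in any BALB/c mouse. The receptor, with levels near 0 in BALB/c, had the larger fold.

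Cell cycle genes rose in 23 of 28 tested, with a median of 2.88. Top2a, the topoisomerase of dividing cells, was at 1.17, 1.99 and 2.05 CPM in the BALB/c mice and 17.2, 12.3 and 15.1 CPM in the NOD.H-2b mice (log2 fold change 3.09 ± 0.224 (SE), edgeR adjusted p = 1.72e-05). Mki67, the gene of the Ki-67 antigen, was higher by less than 2-fold, at 24.5, 26.1 and 20.99 CPM in the BALB/c mice and 43.0, 33.4 and 42.2 CPM in the NOD.H-2b mice (log2 fold change 0.73 ± 0.117 (SE), edgeR adjusted p = 0.000858), and reached a log2 fold change of 1.14 with the epithelial list as the scale. Bub1, a kinase of the spindle checkpoint, had the largest change, at 0.0365, 0.0604 and 0.0591 CPM in the BALB/c mice and 1.16, 0.599 and 1.25 CPM in the NOD.H-2b mice (log2 fold change 4.21 ± 0.488 (SE), edgeR adjusted p = 0.000124). Mki67 and Top2a are both markers of dividing cells and were higher by unequal amounts.

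**Figure D2:**
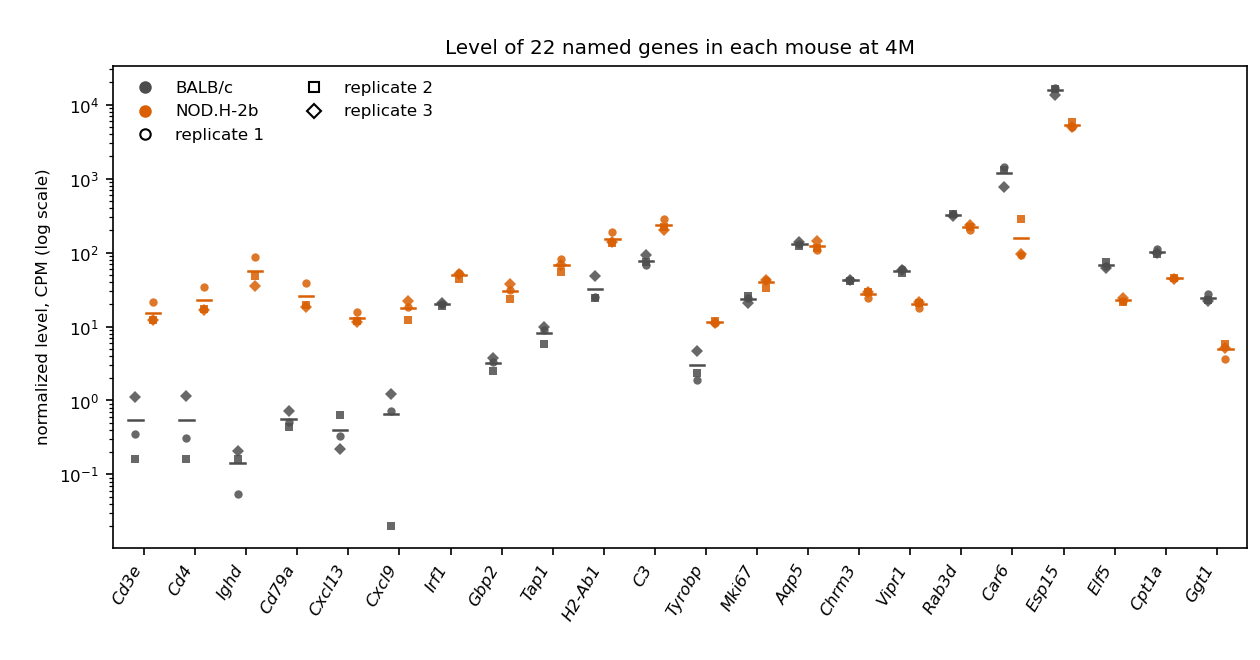
Level of 22 named genes (CPM, log scale) in each mouse at 4M, with BALB/c grey and NOD.H-2b orange, 1 symbol shape per replicate number and a bar at the mean of 3 mice. The immune genes and Mki67 on the left are higher in all 3 NOD.H-2b mice. Chrm3, Vipr1, Rab3d, Car6, Esp15, Elf5, Cpt1a and Ggt1 on the right are lower in all 3.

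The 21 lists of immune, cell cycle and cell death genes thus had medians from 0.94 to 5.51, while the lists of the gland had medians from -0.41 to 0.13. The lowest of the 21 medians was that of the cell death list. Of their tested members, 48.7 to 100% were upregulated in the 21 lists and 3.45 to 17.6% in the gland lists, beside 15.6% of all genes. Downregulated were 0 to 5% and 0 to 16.7%, beside 4.72% of all genes. These lists share members, and the 21 lists are not independent of each other.

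**Figure D3:**
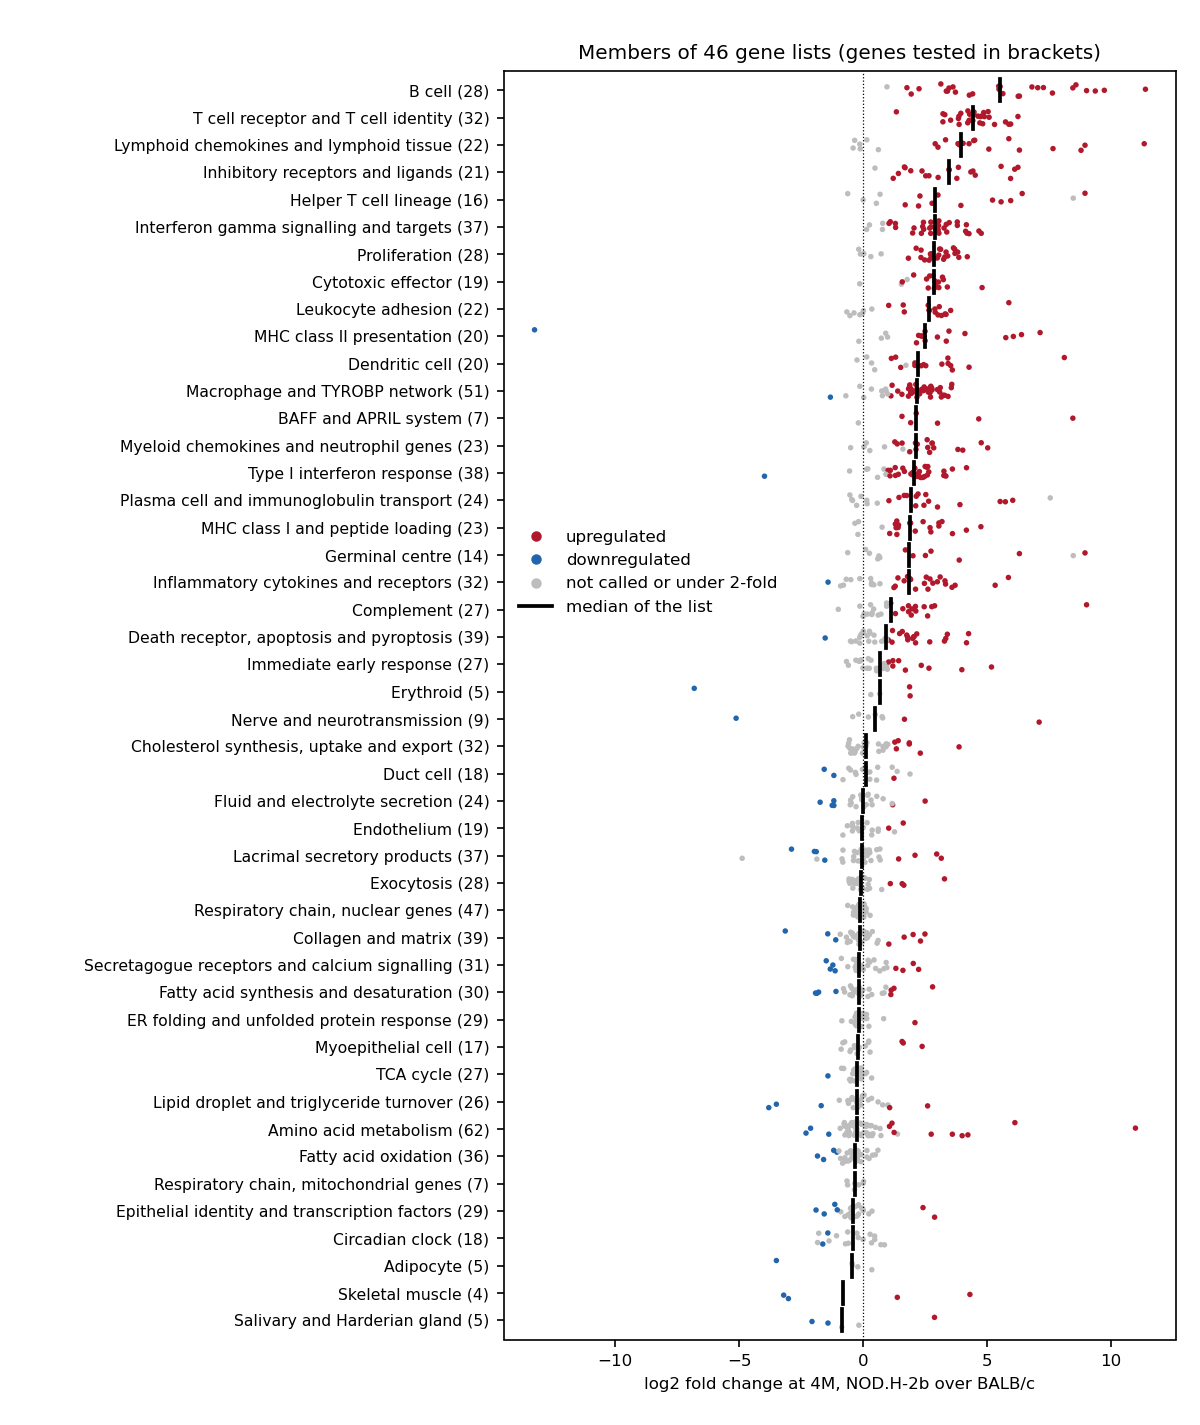
Log2 fold change at 4M (horizontal) of each member of the 46 gene lists (rows, with the number of genes tested), 1 point per gene, red for upregulated, blue for downregulated and grey for other genes, with a black bar at the median. B cell and T cell lists lie furthest to the right at medians of 5.51 and 4.45, and the gland and metabolic lists lie about 0.

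Secretory products of the gland had a median of -0.04 on the log2 scale over 37 genes tested (0.37 with the epithelial scale). Of these, 4 were upregulated and 4 downregulated (10.8% each, beside 15.6% and 4.72% of all genes), but single products moved far. Car6 (ENSMUSG00000028972), a carbonic anhydrase secreted into tears, was at 1445, 1321 and 763 CPM in the BALB/c mice and 92.02, 289 and 95.5 CPM in the NOD.H-2b mice (log2 fold change -2.89 ± 0.633 (SE), edgeR adjusted p = 0.0221). The strains did not overlap, BALB/c mouse 3 was the lowest of its strain and NOD.H-2b mouse 2 the highest of its own. Leaving out BALB/c mouse 1, BALB/c mouse 2, NOD.H-2b mouse 1 or NOD.H-2b mouse 3 gave edgeR adjusted p-values for Car6 of 0.0669, 0.0559, 0.0769 and 0.0595, and without NOD.H-2b mouse 2 the log2 fold change was -3.65. Esp15, an exocrine gland peptide, was at 16890, 16490 and 13390 CPM in the BALB/c mice and 5071, 5915 and 5038 CPM in the NOD.H-2b mice (log2 fold change -1.55 ± 0.118 (SE), edgeR adjusted p = 1.11e-05), and all 3 NOD.H-2b mice lay below all BALB/c mice. Esp31 and Scgb2a2 fell by 1.97 and 1.89 on the log2 scale. Scgb2b3, a secretoglobin, was at 3103, 3816 and 2328 CPM in the BALB/c mice and 3586, 4150 and 3802 CPM in the NOD.H-2b mice (edgeR adjusted p = 0.161), with overlap. Lcn3, a lipocalin, had the largest rise of the list, at 0.0183, 0.0403 and 0.0886 CPM in the BALB/c mice and 0.559, 0.169 and 0.715 CPM in the NOD.H-2b mice (log2 fold change 3.16 ± 0.711 (SE), edgeR adjusted p = 0.00528, or 3.94 without BALB/c mouse 3). Lpo and Dmbt1, which encode antimicrobial tear proteins, were lower by less than 2-fold (-0.82 and -0.81), while Ltf and Lyz1 were not called.

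By family, Scgb genes took 33.8, 33.8 and 33.4% of all counts in the BALB/c mice and 33.8, 36.9 and 35.5% in the NOD.H-2b mice, on average 33.7% ± 0.239 and 35.4% ± 1.54 (SD, n = 3 each) (exact p = 0.1, adjusted p = 0.175). NOD.H-2b mouse 1 and BALB/c mouse 2 were both at 33.8%, and with mitochondrial genes left out of the total the exact p was 0.2. Esp genes took 4.16, 3.98 and 3.57% of all counts in the BALB/c mice and 2.63, 2.69 and 2.61% in the NOD.H-2b mice, on average 3.90% ± 0.303 and 2.65% ± 0.0414 (SD, n = 3 each) (exact p = 0.1, adjusted p = 0.175), all NOD.H-2b mice being below all BALB/c mice. Obp, Mup and Lcn genes took 7.46, 8.33 and 6.07% of all counts in the BALB/c mice and 6.66, 6.19 and 6.90% in the NOD.H-2b mice, on average 7.29% ± 1.14 and 6.58% ± 0.359 (SD, n = 3 each) (exact p = 0.5). Mitochondrial genes took 2.22, 2.16 and 2.24% of all counts in the BALB/c mice and 1.99, 2.15 and 2.16% in the NOD.H-2b mice, on average 2.21% ± 0.0437 and 2.10% ± 0.0980 (SD, n = 3 each) (exact p = 0.2), and the 10 genes with the most counts 37.4, 38.7 and 36.6% of all counts in the BALB/c mice and 38.5, 40.2 and 39.0% in the NOD.H-2b mice, on average 37.6% ± 1.03 and 39.2% ± 0.916 (SD, n = 3 each) (exact p = 0.2). With 3 mice against 3, no p under 0.1 was possible. Scgb, Esp, Obp and Mup genes are near-identical copies, so families are firmer than single members.

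**Figure D4:**
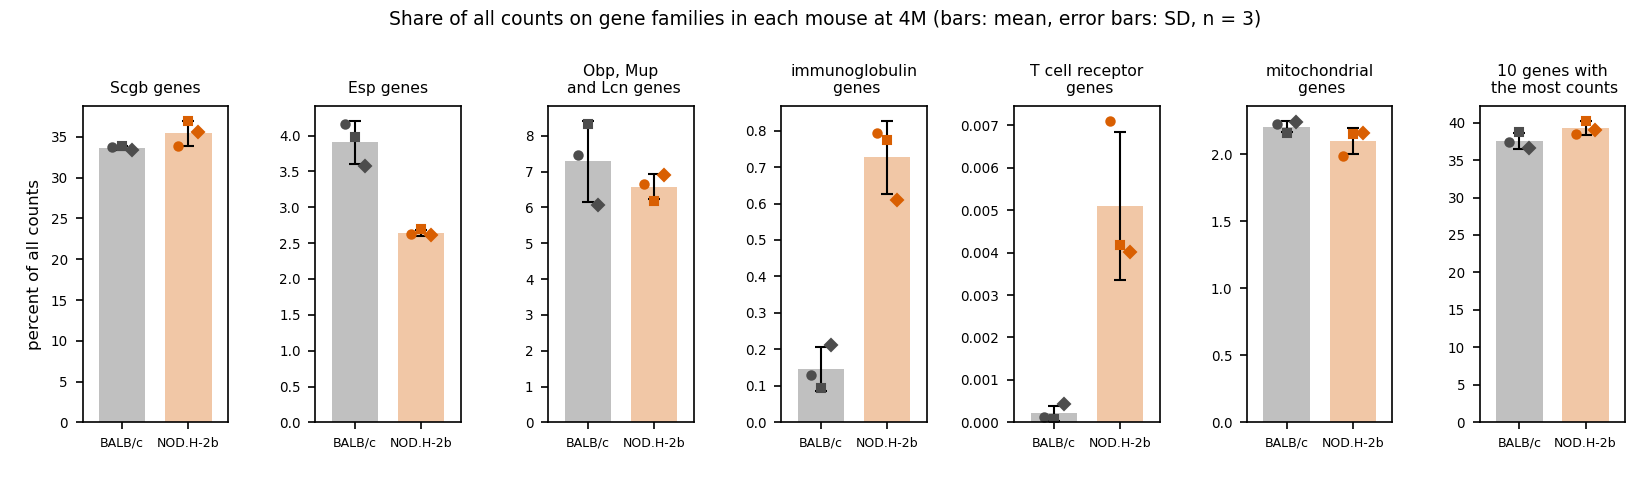
Percent of all counts on 7 gene families in each mouse at 4M, 1 panel per family with its own axis from 0, with bars at the mean and error bars of 1 SD over 3 mice per strain. Immunoglobulin and T cell receptor genes are higher and Esp genes lower in all 3 NOD.H-2b mice, while Obp, Mup and Lcn genes overlap between the strains.

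Genes of fluid and electrolyte secretion had 2 upregulated and 4 downregulated members of 24 tested, with a median of -0.01. These were 8.33% and 16.7% of the list, beside 15.6% and 4.72% of all genes. With the epithelial scale the split turned round to 4 up and 1 down, with a median of 0.41. Aqp5 was at 132, 123 and 137 CPM in the BALB/c mice and 108, 114 and 145 CPM in the NOD.H-2b mice and overlapped between the strains (edgeR adjusted p = 0.525). Ano1, the calcium-activated chloride channel of acinar cells, was at 68.0, 65.7 and 67.8 CPM in the BALB/c mice and 40.2, 50.3 and 50.1 CPM in the NOD.H-2b mice (log2 fold change -0.52 ± 0.0893 (SE), edgeR adjusted p = 0.00118), lower in every NOD.H-2b mouse by less than 2-fold. Slc12a2, the cotransporter that loads chloride, was at 71.0, 83.8 and 72.7 CPM in the BALB/c mice and 59.3, 69.2 and 58.5 CPM in the NOD.H-2b mice (log2 fold change -0.28, edgeR adjusted p = 0.0284), a difference smaller than the 0.41 of the epithelial scale. The channels Kcnn4 and Kcnq1 fell by 1.73 and 1.25, and Car12 and Scnn1a each fell by 1.18 on the log2 scale. Car2, the cytosolic carbonic anhydrase, rose, at 0.0913, 0.443 and 0.502 CPM in the BALB/c mice and 2.87, 1.46 and 1.63 CPM in the NOD.H-2b mice (log2 fold change 2.50 ± 0.520 (SE), edgeR adjusted p = 0.00501).

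Secretagogue receptors and calcium signalling had 4 members up and 4 down of 31 tested, with a median of -0.14. Each was 12.9% of the list, beside 15.6% up and 4.72% down over all genes. With the epithelial list as the scale 8 were up and 1 was down, with a median of 0.27. The receptors that drive secretion were lower. Chrm3, the muscarinic receptor for acetylcholine, was at 42.02, 41.8 and 43.2 CPM in the BALB/c mice and 24.6, 29.4 and 29.0 CPM in the NOD.H-2b mice (log2 fold change -0.62 ± 0.0835 (SE), edgeR adjusted p = 0.000298). Adra1a, an alpha-adrenergic receptor, was at 34.4, 35.5 and 31.6 CPM in the BALB/c mice and 17.4, 14.7 and 14.3 CPM in the NOD.H-2b mice (log2 fold change -1.13 ± 0.0960 (SE), edgeR adjusted p = 2.02e-05). Vipr1, a receptor of vasoactive intestinal peptide, was at 59.2, 52.6 and 57.5 CPM in the BALB/c mice and 17.8, 21.02 and 21.6 CPM in the NOD.H-2b mice (log2 fold change -1.49 ± 0.0915 (SE), edgeR adjusted p = 3.05e-06). In each, all NOD.H-2b mice were below all BALB/c mice, and with the epithelial scale Adra1a remained lower at -0.71 but under 2-fold. The calcium release channels Itpr1 and Itpr2 rose by 1.32 and 1.61, and Stim1, which senses the calcium store, fell by 1.22.

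Exocytosis genes had 4 upregulated (14.3%, near the 15.6% of all genes) and no downregulated member of 28 tested. Their median of -0.08 became 0.33 with the epithelial scale. Rab3d, on secretory granules, was at 332, 328 and 316 CPM in the BALB/c mice and 201, 220.2 and 238 CPM in the NOD.H-2b mice (log2 fold change -0.57 ± 0.0772 (SE), edgeR adjusted p = 0.000311). Rab27b, another granule Rab, was at 54.0, 59.0 and 52.4 CPM in the BALB/c mice and 38.7, 38.3 and 44.4 CPM in the NOD.H-2b mice (log2 fold change -0.45 ± 0.0816 (SE), edgeR adjusted p = 0.00166). Both were lower in all NOD.H-2b mice by less than 2-fold, while Vamp8, a fusion protein of granules, overlapped (25.7, 25.1 and 26.8 CPM in the BALB/c mice and 21.9, 24.6 and 25.9 CPM in the NOD.H-2b mice, edgeR adjusted p = 0.383). Unc13d, which primes granules of cytotoxic cells as well, rose (log2 fold change 3.29 ± 0.479 (SE), edgeR adjusted p = 0.00235, or 3.89 without BALB/c mouse 3).

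ER folding genes had 1 upregulated member of 29 tested (3.45%, beside 15.6% of all genes), or 2 with the epithelial scale. Their median of -0.17 became 0.24 with the epithelial scale. Hspa5, the main ER chaperone, was at 801, 866 and 812 CPM in the BALB/c mice and 939, 864 and 1113 CPM in the NOD.H-2b mice (edgeR adjusted p = 0.0836), with overlap. Xbp1, a factor of secretory cells, was at 426, 353 and 330.3 CPM in the BALB/c mice and 304, 327 and 295 CPM in the NOD.H-2b mice (edgeR adjusted p = 0.0565). Ddit3, of the stress branch, was higher by less than 2-fold (log2 fold change 0.83 ± 0.205 (SE), edgeR adjusted p = 0.00876). Trib3, another stress gene, was called, at 1.77, 0.483 and 0.606 CPM in the BALB/c mice and 2.81, 5.07 and 4.33 CPM in the NOD.H-2b mice (log2 fold change 2.09 ± 0.510 (SE), edgeR adjusted p = 0.0162), but not without BALB/c mouse 3 (edgeR adjusted p = 0.0503), and without BALB/c mouse 1 its log2 fold change was 2.88.

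Epithelial identity genes were the gland list with the lowest median, -0.41. Of 29 tested, 17 were lower at an adjusted p under 0.05 (19.2% of all genes were), 4 of them by at least 2-fold (2 on the scale of the list itself, which sets its median at 0), and 2 were upregulated. Elf5 (ENSMUSG00000027186), a transcription factor of secretory epithelium, was at 66.2, 74.0 and 62.5 CPM in the BALB/c mice and 22.3, 21.8 and 24.2 CPM in the NOD.H-2b mice (log2 fold change -1.57 ± 0.0837 (SE), edgeR adjusted p = 1.43e-06). Sox10, of acinar identity, was at 6.94, 8.90 and 9.14 CPM in the BALB/c mice and 6.75, 5.67 and 6.26 CPM in the NOD.H-2b mice (log2 fold change -0.42 ± 0.140 (SE), edgeR adjusted p = 0.0351). Epcam, an adhesion molecule of all epithelial cells, was at 103.6, 109.9 and 108 CPM in the BALB/c mice and 84.2, 102 and 96.6 CPM in the NOD.H-2b mice (edgeR adjusted p = 0.0928). All NOD.H-2b mice were below all BALB/c mice in these 3 genes, but by unequal amounts. Barx2, of gland development, fell by 1.90 and Etv1 by 1.04, while the broad epithelial genes Cdh1 and Krt8 were at 0.01 and -0.05 and not called. The largest rise was Runx3 (log2 fold change 2.89 ± 0.428 (SE), edgeR adjusted p = 0.00281), a factor that T cells also express.

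Duct genes had 1 upregulated and 2 downregulated members of 18 tested (5.56% and 11.1%, beside 15.6% and 4.72% of all genes), with a median of 0.13. The split turned round with the epithelial scale, to 5 up and 1 down with a median of 0.54, and 2 were up by DESeq2, in the fit of 18 mice, with the replicate block and without BALB/c mouse 3. Krt7 and Krt19, keratins of ducts, overlapped between the strains (8.25, 11.4 and 13.6 CPM in the BALB/c mice and 9.44, 12.5 and 10.8 CPM in the NOD.H-2b mice for Krt7). Myoepithelial genes had 3 upregulated members of 17 tested (17.6%, near the 15.6% of all genes), with a median of -0.19, or 0.22 with the epithelial scale. Acta2, smooth muscle actin, was at 25.6, 35.6 and 33.0 CPM in the BALB/c mice and 26.04, 28.0 and 25.5 CPM in the NOD.H-2b mice (edgeR adjusted p = 0.123), and Krt14 at 7.83, 8.84 and 10.0 CPM in the BALB/c mice and 9.56, 9.87 and 11.9 CPM in the NOD.H-2b mice (edgeR adjusted p = 0.192), both with overlap. Actg2, another smooth muscle actin, rose (0.201, 0.282 and 0.133 CPM in the BALB/c mice and 0.619, 0.860 and 1.73 CPM in the NOD.H-2b mice, log2 fold change 2.38 ± 0.482 (SE), edgeR adjusted p = 0.00292).

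In fatty acid oxidation 23 of 36 genes tested were lower at an adjusted p under 0.05 (beside 19.2% of all genes), 4 of them by at least 2-fold (2 with the epithelial scale), and 1 was higher, with a median of -0.33 that became 0.08 with the epithelial scale. Cpt1a (ENSMUSG00000024900), which admits fatty acids to mitochondria, was at 111, 96.3 and 97.6 CPM in the BALB/c mice and 45.4, 45.2 and 43.5 CPM in the NOD.H-2b mice (log2 fold change -1.19 ± 0.0735 (SE), edgeR adjusted p = 3.20e-06). Ppara, the nuclear receptor of the pathway, was at 13.5, 12.7 and 15.0 CPM in the BALB/c mice and 6.95, 8.25 and 8.03 CPM in the NOD.H-2b mice (log2 fold change -0.83 ± 0.113 (SE), edgeR adjusted p = 0.000315). Acadm, a dehydrogenase of medium chains, was at 73.3, 70.0 and 66.3 CPM in the BALB/c mice and 40.6, 49.1 and 36.2 CPM in the NOD.H-2b mice (log2 fold change -0.73 ± 0.106 (SE), edgeR adjusted p = 0.000506). In all 3 genes every NOD.H-2b mouse was below every BALB/c mouse. With the epithelial scale Cpt1a stayed lower at -0.77 but under 2-fold. Acot1, a thioesterase with close copies, fell most (log2 fold change -1.84 ± 0.245 (SE), edgeR adjusted p = 0.000272).

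Fatty acid synthesis genes had 4 upregulated and 4 downregulated members of 30 tested (13.3% each, beside 15.6% and 4.72% of all genes). Their median was -0.17 (7 up, 3 down and 0.25 with the epithelial scale). Srebf1, the transcription factor of the pathway, was at 167, 190.5 and 176 CPM in the BALB/c mice and 95.1, 102 and 112 CPM in the NOD.H-2b mice (log2 fold change -0.79 ± 0.0808 (SE), edgeR adjusted p = 5.97e-05). Scd1, the main desaturase, was at 643, 843 and 745 CPM in the BALB/c mice and 487, 519 and 560.1 CPM in the NOD.H-2b mice (log2 fold change -0.51 ± 0.104 (SE), edgeR adjusted p = 0.00310). Fasn, the synthase, was at 304, 353 and 395 CPM in the BALB/c mice and 230.4, 316 and 435 CPM in the NOD.H-2b mice (edgeR adjusted p = 0.783). Srebf1 and Scd1 were lower in all NOD.H-2b mice by less than 2-fold, and Fasn overlapped. Acacb and Acss2 fell by 1.92 and 1.87, while Fads2, a desaturase of polyunsaturated fatty acids, rose, at 0.292, 0.342 and 0.399 CPM in the BALB/c mice and 3.11, 2.17 and 2.01 CPM in the NOD.H-2b mice (log2 fold change 2.81 ± 0.283 (SE), edgeR adjusted p = 5.52e-05).

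Lipid droplet genes had 2 members up and 3 down of 26 tested (7.69% and 11.5%, beside 15.6% and 4.72% of all genes). Their median was -0.25 (5 up, 3 down and 0.17 with the epithelial scale). Dgat2, which makes triglyceride, was at 105, 112 and 101 CPM in the BALB/c mice and 69.7, 65.3 and 72.6 CPM in the NOD.H-2b mice (log2 fold change -0.61 ± 0.0696 (SE), edgeR adjusted p = 0.000111). Pnpla2, the lipase of droplets, was lower (-0.24, edgeR adjusted p = 0.0181, turning higher with the epithelial scale) and Plin2, a droplet coat protein, higher (0.60, edgeR adjusted p = 0.0311), both by less than 2-fold. Mogat1, an acyltransferase, had 70 counts in the BALB/c mice and 5 in the NOD.H-2b mice, lower by a ratio of 14.77 (95% counting interval 6.039 to 46.91). Of the 5 counts 3 were in mouse 3, without which the fitted log2 fold change was -4.60 instead of -3.81. Mgll, a lipase of monoglycerides, was at 39.3, 55.3 and 48.5 CPM in the BALB/c mice and 13.3, 15.8 and 15.2 CPM in the NOD.H-2b mice (log2 fold change -1.69 ± 0.129 (SE), edgeR adjusted p = 1.72e-05), with no overlap between the strains.

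Cholesterol genes had 7 upregulated (21.9%, beside 15.6% of all genes) and no downregulated member of 32 tested, with a median of 0.13. With the epithelial scale 15 were upregulated, with a median of 0.55. Hsd17b7, an enzyme of synthesis, had the largest rise, at 0.0730, 0.161 and 0.148 CPM in the BALB/c mice and 2.73, 1.54 and 1.41 CPM in the NOD.H-2b mice (log2 fold change 3.87 ± 0.414 (SE), edgeR adjusted p = 7.74e-05). The pathway did not move as 1, since Hmgcs1, Lss and Mvk were lower by less than 2-fold (-0.53, -0.55 and -0.58). Abca1, the exporter, overlapped (188, 192 and 205 CPM in the BALB/c mice and 210.2, 197 and 169 CPM in the NOD.H-2b mice, edgeR adjusted p = 0.864).

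Of 27 TCA cycle genes tested, 13 were lower at an adjusted p under 0.05 (19.2% of all genes were) and 1 of these by at least 2-fold, with a median of -0.23 (0.18 with the epithelial scale). That gene was Suclg2, the GTP-forming succinyl-CoA ligase subunit, at 40.5, 38.3 and 38.9 CPM in the BALB/c mice and 13.9, 15.6 and 14.5 CPM in the NOD.H-2b mice (log2 fold change -1.42 ± 0.0770 (SE), edgeR adjusted p = 1.60e-06). Cs, citrate synthase, was at 60.1, 61.7 and 59.0 CPM in the BALB/c mice and 56.7, 56.7 and 57.5 CPM in the NOD.H-2b mice (edgeR adjusted p = 0.308), and Idh3a was higher by less than 2-fold (log2 fold change 0.35 ± 0.114 (SE), edgeR adjusted p = 0.0330). None of the 47 nuclear genes of the respiratory chain passed both thresholds, while 9 were lower without the fold threshold (beside the same 19.2%), and the median of -0.13 became 0.28 with the epithelial scale. Atp5a1, Cox4i1 and Ndufs1, subunits of its complexes, had edgeR adjusted p-values of 0.167, 0.135 and 0.317 and overlapped between the strains. Of the 7 mitochondrial genes tested, 4 were lower without the fold threshold, with a median of -0.33 (0.08 with the epithelial scale, -0.18 without NOD.H-2b mouse 1). mt-Nd2, of complex I, was at 660.3, 626 and 532 CPM in the BALB/c mice and 332, 387 and 441 CPM in the NOD.H-2b mice (log2 fold change -0.65 ± 0.117 (SE), edgeR adjusted p = 0.00178). mt-Co1, of complex IV, was at 2241, 2223 and 2050 CPM in the BALB/c mice and 2097, 2275 and 2232 CPM in the NOD.H-2b mice (edgeR adjusted p = 0.868). The mitochondrial genes are transcribed together, yet differed by unequal amounts.

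Of 62 amino acid genes tested, 9 were upregulated and 3 downregulated (14.5% and 4.84%, near the 15.6% and 4.72% of all genes). Without the fold threshold 31 were lower (19.2% of all genes were), and the list median was -0.26 (0.16 with the epithelial scale). Ggt1 (ENSMUSG00000006345), which breaks down glutathione outside the cell, was at 27.6, 22.9 and 22.1 CPM in the BALB/c mice and 3.69, 5.82 and 5.21 CPM in the NOD.H-2b mice (log2 fold change -2.30 ± 0.172 (SE), edgeR adjusted p = 1.96e-05). Asns, asparagine synthetase, was at 77.3, 64.6 and 66.9 CPM in the BALB/c mice and 42.2, 45.4 and 56.2 CPM in the NOD.H-2b mice (log2 fold change -0.54 ± 0.115 (SE), edgeR adjusted p = 0.00483). Phgdh, the entry to serine synthesis, was at 50.6, 47.2 and 45.6 CPM in the BALB/c mice and 33.9, 40.1 and 42.4 CPM in the NOD.H-2b mice (log2 fold change -0.30 ± 0.0910 (SE), edgeR adjusted p = 0.0226). All 3 were lower in every NOD.H-2b mouse, Ggt1 by 4.94-fold and the others by less than 2-fold, and the difference of Phgdh was smaller than the 0.41 of the epithelial scale. Kmo and Kynu, enzymes of the kynurenine pathway, rose by 4.00 and 4.23, Ddc, which makes dopamine and serotonin, by 6.13, and Tdo2, which opens the tryptophan pathway, fell by 2.12 on the log2 scale.

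Nos1 (ENSMUSG00000029361, chr5:117781032-117958840), the neuronal nitric oxide synthase, was among the 6 largest increases of genes of at least 4 average log2 CPM. It was at 0.0913, 0.121 and 0.103 CPM in the BALB/c mice and 156, 217 and 280.5 CPM in the NOD.H-2b mice (log2 fold change 10.99 ± 0.383 (SE), edgeR adjusted p = 1.14e-05). The 3 BALB/c mice were near 0 and the NOD.H-2b mice were at more than 100 CPM each. Other genes overlap Nos1 on both strands.

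Collagen and matrix genes had 5 upregulated and 3 downregulated members of 39 tested (12.8% and 7.69%, beside 15.6% and 4.72% of all genes). Their median was -0.14 (6 up, 1 down and 0.28 with the epithelial scale). Leaving out 1 mouse at a time gave 2 to 4 upregulated and 1 to 3 downregulated members, with 2 up without BALB/c mouse 2, and 3 up and 1 down without BALB/c mouse 1, NOD.H-2b mouse 1 or NOD.H-2b mouse 3. Col1a1, of fibrillar collagen, was at 49.1, 64.5 and 102 CPM in the BALB/c mice and 50.7, 48.3 and 39.7 CPM in the NOD.H-2b mice (edgeR adjusted p = 0.148), and Col3a1 at 133, 172 and 231 CPM in the BALB/c mice and 148, 151 and 126 CPM in the NOD.H-2b mice (edgeR adjusted p = 0.249). Both overlapped, with BALB/c mouse 3 the highest of the 6. Timp1, an inhibitor of matrix proteases, and Tnc, a matrix protein of remodelling tissue, rose by 2.32 and 2.50. Mmp12, the elastase of macrophages, fell, at 0.475, 0.805 and 2.90 CPM in the BALB/c mice and 0.166, 0.200 and 0.0993 CPM in the NOD.H-2b mice (log2 fold change -3.14 ± 0.760 (SE), edgeR adjusted p = 0.0132). Most of its BALB/c level came from mouse 3, without which the log2 fold change was -2.01, and edgeR's adjusted p was 0.0800 without NOD.H-2b mouse 1 and 0.0567 without NOD.H-2b mouse 3.

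Endothelial genes had 2 upregulated members of 19 tested (10.5%, beside 15.6% of all genes). Their median was -0.03 (5 up and 0.38 with the epithelial scale, and 1 up without BALB/c mouse 3). Pecam1, the junction protein of vessels that leukocytes also carry, was at 9.60, 8.46 and 9.82 CPM in the BALB/c mice and 35.4, 26.1 and 24.2 CPM in the NOD.H-2b mice (log2 fold change 1.62 ± 0.145 (SE), edgeR adjusted p = 4.27e-05). Cdh5, VE-cadherin, was at 5.404, 5.46 and 5.98 CPM in the BALB/c mice and 8.62, 6.53 and 6.30 CPM in the NOD.H-2b mice (edgeR adjusted p = 0.0848). Ackr1, of venules, was at 0.456, 0.604 and 0.428 CPM in the BALB/c mice and 1.01, 1.01 and 1.01 CPM in the NOD.H-2b mice (log2 fold change 1.03 ± 0.281 (SE), edgeR adjusted p = 0.0140), called with all 6 mice but not without BALB/c mouse 1 (edgeR adjusted p = 0.0504) or, by its fold change, without BALB/c mouse 3 (0.93). Nerve genes had 2 up and 1 down of 9 tested (22.2% and 11.1%, beside 15.6% and 4.72% of all genes). Gabbr2, a GABA receptor subunit, had 5 counts in the BALB/c mice and 777 in the NOD.H-2b mice, a ratio of 147.3 (95% counting interval 62.83 to 454.8).

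Markers of neighbouring tissue moved both ways, in lists with 4 or 5 genes tested. Of these, 50% and 50% of muscle genes and 0% and 20% of adipocyte genes were up and down. It was 20% and 40% of salivary and Harderian genes and 40% and 20% of erythroid genes, beside 15.6% and 4.72% of all genes. Of the 15 skeletal muscle genes 4 were tested, 2 of them up and 2 down. Ckm, muscle creatine kinase, fell (0.548, 0.644 and 0.842 CPM in the BALB/c mice and 0.106, 0.0614 and 0.0795 CPM in the NOD.H-2b mice) and Ttn, titin, rose (0.274, 0.101 and 0.163 CPM in the BALB/c mice and 7.24, 1.54 and 2.03 CPM in the NOD.H-2b mice), to 3.29 on the log2 scale instead of 4.31 without NOD.H-2b mouse 1. Their summed level was 1.48 to 2.19 CPM in the BALB/c mice and 2.58 to 8.32 CPM in the NOD.H-2b mice. Of 11 adipocyte genes 5 were tested and Cidea fell (log2 fold change -3.50 ± 0.407 (SE), edgeR adjusted p = 0.000129, or -4.10 without NOD.H-2b mouse 3), while Adipoq and Plin1, the defining markers, overlapped at under 1 CPM. Of the salivary and Harderian gland list 5 genes were tested, and its summed level was 162 to 175 CPM in the BALB/c mice and 83.0 to 97.9 CPM in the NOD.H-2b mice, with no overlap. Most of that was Egf, a growth factor, lower by less than 2-fold, and Prlr, the prolactin receptor, was down. At low levels, Amy1, an amylase, was down (1.15, 1.31 and 1.197 CPM in the BALB/c mice and 0.378, 0.230 and 0.258 CPM in the NOD.H-2b mice) and Klk1, a kallikrein with close copies, up (0.0365, 0 and 0.310 CPM in the BALB/c mice and 1.10, 0.875 and 0.854 CPM in the NOD.H-2b mice). Klk1 was not called without BALB/c mouse 1, NOD.H-2b mouse 1 or NOD.H-2b mouse 2 (edgeR adjusted p = 0.0710, 0.0617 and 0.0541). Of the erythroid list, Hba-a1 was up (5.53, 7.89 and 4.51 CPM in the BALB/c mice and 24.8, 14.0 and 27.9 CPM in the NOD.H-2b mice) and its near-identical copy Hba-a2 down, with 355 counts in the BALB/c mice and 3 in the NOD.H-2b mice, while Hbb-bs overlapped (25.1, 36.0 and 19.9 CPM in the BALB/c mice and 48.4, 28.3 and 52.3 CPM in the NOD.H-2b mice, edgeR adjusted p = 0.170). The summed erythroid level was 30.1 to 51.9 CPM in the BALB/c mice and 49.1 to 91.0 CPM in the NOD.H-2b mice and overlapped. The median of the 5 erythroid genes tested was 0.67, or 1.38 without NOD.H-2b mouse 2. The part of blood, muscle or other gland in the strain difference was not tested.

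Clock genes had 2 downregulated members of 18 tested (11.1%, beside 4.72% of all genes), or 4 without NOD.H-2b mouse 1. Their median of -0.42 ranged from -0.14 without BALB/c mouse 1 to -0.57 without NOD.H-2b mouse 1. Dbp, a clock output gene, was at 19.5, 8.58 and 11.0 CPM in the BALB/c mice and 8.05, 2.30 and 0.815 CPM in the NOD.H-2b mice, and Arntl, which runs in the opposite phase, at 4.49, 18.2 and 13.6 CPM in the BALB/c mice and 15.4, 21.2 and 29.2 CPM in the NOD.H-2b mice. BALB/c mouse 1 had the most Dbp and the least Arntl, and NOD.H-2b mouse 3 the reverse. Neither was called with all mice (edgeR adjusted p = 0.189 and 0.308), and Dbp was called without NOD.H-2b mouse 1 (0.0416). Per1 overlapped (41.2, 31.6 and 51.1 CPM in the BALB/c mice and 43.9, 26.8 and 37.6 CPM in the NOD.H-2b mice), and Hlf, another output gene, fell (4.60, 3.30 and 3.10 CPM in the BALB/c mice and 1.74, 1.07 and 0.715 CPM in the NOD.H-2b mice, edgeR adjusted p = 0.00244). The hour of dissection was not given in the sources used here, and its part in these values was not tested.

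Immediate early genes, which respond within minutes to signals and to handling, rose in 9 of 27 tested (33.3%, beside 15.6% of all genes). It was 5 without BALB/c mouse 1 and 14 with the epithelial scale, and the median was 0.69. Egr1 was at 2.01, 2.05 and 1.12 CPM in the BALB/c mice and 4.46, 5.01 and 4.49 CPM in the NOD.H-2b mice (log2 fold change 1.44 ± 0.232 (SE), edgeR adjusted p = 0.000821). Fos was at 1.21, 2.23 and 1.36 CPM in the BALB/c mice and 2.17, 3.09 and 5.80 CPM in the NOD.H-2b mice and overlapped between the strains (edgeR adjusted p = 0.0445, and 0.149, 0.139, 0.0676 and 0.0960 without BALB/c mouse 1, BALB/c mouse 3, NOD.H-2b mouse 2 and NOD.H-2b mouse 3). Egr3, which lymphocytes induce on activation, rose most, at 0.0913, 0 and 0.177 CPM in the BALB/c mice and 4.67, 3.52 and 2.54 CPM in the NOD.H-2b mice (log2 fold change 5.18, or 6.16 without BALB/c mouse 3).

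The largest differences among well expressed genes were of the on and off kind. Gm43974 (ENSMUSG00000107774, chr6:131940936-131941619), a lincRNA, had 5 counts in the BALB/c mice, all in mouse 3, and was at 1102, 1227 and 1332 CPM in NOD.H-2b (edgeR adjusted p = 2.87e-07). Its fitted log2 fold change was 15.26, or 19.09 without BALB/c mouse 3. Gm1966 (chr7:106596743-106604035), a pseudogene, was at 0.0730, 0.0201 and 0.222 CPM in the BALB/c mice and 108, 65.2 and 62.1 CPM in the NOD.H-2b mice (log2 fold change 9.38 ± 0.525 (SE), edgeR adjusted p = 0.000124), or 10.61 without BALB/c mouse 3. Ceacam2 (chr7:25516042-25539857), an adhesion molecule of the carcinoembryonic antigen family, was at 0.365, 0.282 and 0.266 CPM in the BALB/c mice and 105, 137 and 138 CPM in the NOD.H-2b mice (log2 fold change 8.70 ± 0.172 (SE), edgeR adjusted p = 8.62e-09). In each the BALB/c mice were near 0 and the strains did not overlap. Pax5, Nos1 and Ighd, given above, complete the 6 largest increases.

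The 6 largest decreases were Gm1330, Gm34314, Gm15772, Gm34224, Gm14129 and Esp34. Gm1330 (ENSMUSG00000063507, chr2:148990343-149003251) was at 687, 708 and 678 CPM in the BALB/c mice and 0.604, 0.138 and 0.179 CPM in the NOD.H-2b mice (log2 fold change -11.08 ± 0.416 (SE), edgeR adjusted p = 2.02e-05, or -12.09 without NOD.H-2b mouse 1). Gm34224 (chr6:133597285-133599305), a pseudogene, was at 2928, 3023 and 3059 CPM in the BALB/c mice and 5.68, 5.65 and 17.0 CPM in the NOD.H-2b mice (log2 fold change -8.33 ± 0.661 (SE), edgeR adjusted p = 0.000676, or -9.05 without NOD.H-2b mouse 3). Esp34 (chr17:38554192-38560621), an exocrine gland peptide, was at 82.2, 77.4 and 49.8 CPM in the BALB/c mice and 1.51, 0.584 and 0.815 CPM in the NOD.H-2b mice (log2 fold change -6.15 ± 0.414 (SE), edgeR adjusted p = 0.000236). Each was lower in all 3 NOD.H-2b mice by more than 16-fold. The pseudogenes Gm34314, Gm15772 and Gm14129 were at 81.5, 113 and 91.7, 82.7, 85.6 and 80.7 and 55.8, 71.5 and 33.6 CPM in BALB/c and at 0.0906, 0 and 0.119, 0.362, 0.246 and 0.0993 and 0.136, 0.353 and 1.59 CPM in NOD.H-2b. For Gm14129 the log2 fold change was -6.38, or -7.77 without NOD.H-2b mouse 3, and for Gm34314 -10.44, or -9.82 without NOD.H-2b mouse 2. The reads of both strains were aligned to the genome of another strain, C57BL/6J, and the part of deleted, duplicated or variant copies in these differences was not tested.

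Genes at or under 3 counts in each mouse of 1 strain and at 30 counts or more in each mouse of the other were counted as near silent. Of the upregulated genes, 110 were near silent in BALB/c, 62 of them protein coding and 12 antigen receptor segments. Of the downregulated genes, 24 were near silent in NOD.H-2b, 8 of them protein coding and 4 antigen receptor segments. By class, 2028 of 13813 protein coding genes were upregulated and 573 downregulated (14.7% and 4.15%). It was 244 and 122 of 1462 long noncoding RNA genes (16.7% and 8.34%) and 123 and 83 of 783 pseudogenes (15.7% and 10.6%). Over all genes the shares were 15.6% and 4.72%.

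The strain difference at 4M was set beside those at 2M and 6M, on the mice of each age. At 2M 2070 genes were upregulated and 647 downregulated, and at 6M 3338 and 1071. Of the genes upregulated at 4M, 60.43% were also upregulated at 2M and 90.06% at 6M, which is 80.77% of those of 2M and 74.66% of those of 6M. For downregulated genes the shares were 53.64% and 75.03% of those of 4M, 69.4% of those of 2M and 58.64% of those of 6M. Upregulated at 4M only were 180 genes and downregulated at 4M only were 160. These genes were chosen by their calls in the same mice, which favours a shift between ages. A call at 1 age alone does not show a difference between ages. The strain difference itself differed between 2M and 4M in 5 and 10 of these genes, and between 4M and 6M in 0 of them. From 2M to 4M it shifted towards NOD.H-2b in 0.696% of all genes and towards BALB/c in 0.978%.

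That difference between ages was tested in 1 fit of all 18 mice. From 2M to 4M the strain difference shifted towards NOD.H-2b in 133 of 19117 genes (0.696%) and towards BALB/c in 187 (0.978%), at an edgeR adjusted p under 0.05, and 3153 genes had an unadjusted p under 0.05. The total of 320 depended on single mice. It was 114 without NOD.H-2b mouse 1 of 2M, 133 without NOD.H-2b mouse 3 of 2M, 144 without NOD.H-2b mouse 1 of 4M, 152 without BALB/c mouse 2 of either 2M or 4M, 171 without BALB/c mouse 3 of 2M and up to 429 without NOD.H-2b mouse 2 of 4M. DESeq2 called 963. Among the 2767 genes upregulated at 4M, 64 shifted towards NOD.H-2b and 13 towards BALB/c. Among the 837 downregulated, 38 shifted towards BALB/c and 3 towards NOD.H-2b. Both sets were chosen by the difference in the same 4M mice, which favours shifts in the direction of the call. These splits therefore do not show a change with age. From 4M to 6M edgeR called 0 genes in either direction (0% and 0%), with 2533 genes at an unadjusted p under 0.05 and 85 called by DESeq2. Without NOD.H-2b mouse 1 of 4M edgeR called 203 genes and without BALB/c mouse 1 of 6M it called 7. The 4M mice enter both contrasts, so the contrasts are not independent.

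Among single genes, Sult1d1, a sulfotransferase, was higher in NOD.H-2b at 2M (log2 fold change 1.603) and lower at 4M and 6M (-1.08 and -0.75), with an edgeR adjusted p of 0.000564 for the shift from 2M to 4M. Pigr stood at 2.17 at 2M, -0.43 at 4M and -0.45 at 6M (edgeR adjusted p = 0.00585 for the shift). Epcam moved from 0.36 to -0.19 and -0.20 (edgeR adjusted p = 0.00585). The differences of these 3 genes thus moved towards BALB/c after 2M. The other way, S1pr1, which lets lymphocytes leave tissues and lines vessels, moved from 0.95 to 3.15 and 3.41 (edgeR adjusted p = 0.00547), and Pecam1 from 0.52 to 1.61 and 2.24 (edgeR adjusted p = 0.0192). Gm14135, an abundant lincRNA at 11210, 10290 and 10270 CPM in the BALB/c mice and 2340, 1289 and 2390 CPM in the NOD.H-2b mice at 4M, was lower in NOD.H-2b at every age, but less so at 4M (-2.41) and 6M (-4.20) than at 2M (-5.66). From 2M to 4M, 6 of 29 epithelial identity genes and 4 of 39 matrix genes shifted towards BALB/c and none towards NOD.H-2b, beside 0.978% of all genes. Of 37 secretory products, 4 (Esp1, Esp31, Scgb1b2 and Scgb2b2) shifted towards NOD.H-2b and 1 (Mucl2) towards BALB/c, beside 0.696% of all genes for the first direction. In the same fit the B cell list had medians of 4.17 at 2M, 5.50 at 4M and 6.24 at 6M, and the proliferation list of 1.64, 2.87 and 2.36, with no member of either list shifted by the test.

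**Figure D5:**
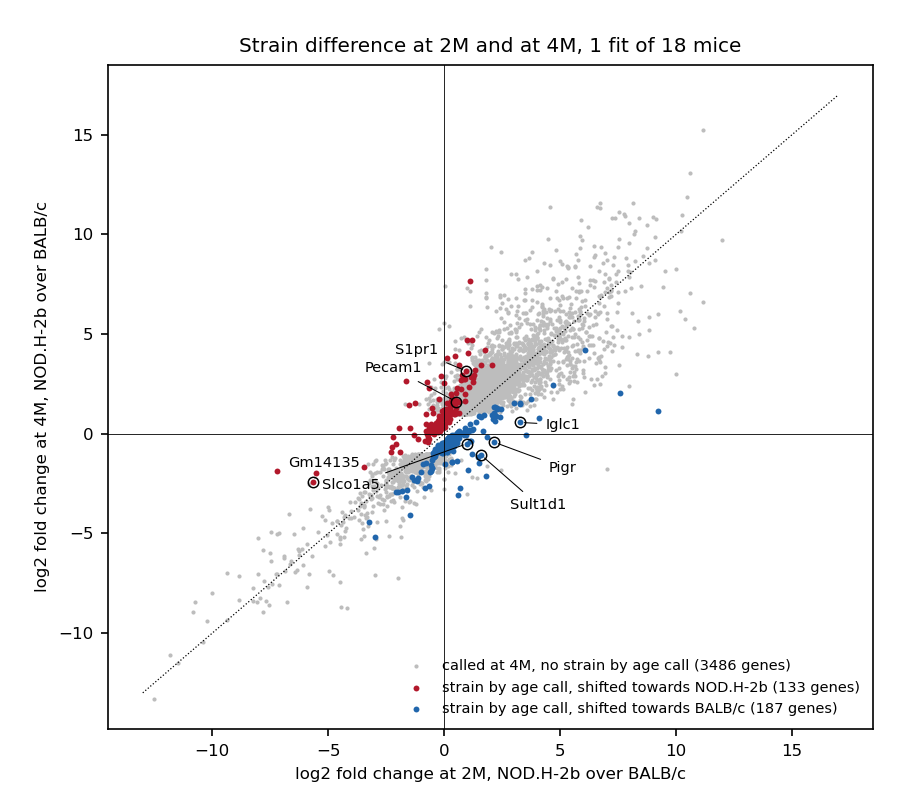
Log2 fold change of NOD.H-2b over BALB/c at 2M (horizontal) and at 4M (vertical) from 1 fit of 18 mice, 1 point per gene called at 4M or in the test between ages, with a dotted line where both are equal. The 133 genes that shifted towards NOD.H-2b are red and lie above the line, the 187 that shifted towards BALB/c are blue and lie below it, and the other 3486 genes are grey.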

How the data were processed

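RNA-seq libraries of 1 LG per mouse came from 18 male mice in 6 groups of strain and age, with 3 mice each. The deposited table held raw read counts for 54232 genes, made by the authors with cutadapt, FastQC, STAR and HTSeq on GRCm38 (per the submitters' processing notes, without versions). Strand and multi-mapping settings and the annotation release were not given in the sources used here. A deposited table of log2 values was not used. Names and coordinates were taken from GENCODE M21, which held 54079 of the genes. Reads of both strains were aligned to 1 genome, and the effect of strain variants on counts was not tested.

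The 6 mice of 4M were fitted with edgeR 4.0.16 (limma 3.58.1, R 4.3.3) by TMM, filterByExpr and its quasi-likelihood test (robust). P-values were adjusted by Benjamini-Hochberg over all genes tested, and calls needed an adjusted p under 0.05 and at least a 2-fold difference. Contrasts between ages used 1 fit of 18 mice, without a fold threshold. DESeq2 1.42.0, other normalizations and filters, glmTreat, a replicate block and leaving out each mouse were alternatives. Families of genes were compared by two-sided exact permutation tests. Where a strain had few counts, ratios per normalized total are given with 95% counting intervals, or against a floor of 3 counts per mouse, and both cover counting error only. The scripts were tested on simulated data.

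Named genes were the anchors of 46 gene lists, the called member with the largest change of each list, the 6 largest changes each way among genes averaging 4 log2 CPM or more, and leading genes of the contrasts between ages. Other list members are named with their list. Some genes that this rule names are not reported here. Comparison, lists and named genes were chosen with earlier results of these data known. Near-identical copies and overlapping genes (72 of the 195 named genes) may share reads. Mice with the same replicate number did not deviate together (correlations -0.070, 0.127 and -0.062), so no pairing was used. No 2 mice had counts that agreed within sampling noise.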

Additional observations from a re-analysis of the deposited data

Results flagged for a closer look

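The strain difference was tested for a change from 2M to 4M. Over all 19117 genes it shifted towards NOD.H-2b in 0.696% and towards BALB/c in 0.978%. Some genes were chosen for naming by their small p in this same contrast, so the number of named genes that pass it is not a result. Of the genes chosen for naming, 15 had an edgeR adjusted p under 0.05 in that contrast. For 8 of them the difference shifted towards BALB/c. Sult1d1 shifted by -2.68 on the log2 scale (edgeR adjusted p = 0.000564), Iglc1, an immunoglobulin light chain gene, by -2.71 (0.0475), Pigr by -2.60 (0.00585), Slco1a5, an organic anion transporter, by -1.49 (0.00225), Mgll by -1.18 (0.00261), Ggt1 by -1.01 (0.0167), Cyp2f2, a cytochrome P450, by -0.83 (0.00225) and Epcam by -0.55 (0.00585). For 7 it shifted towards NOD.H-2b. Gm14135 shifted by 3.26 (edgeR adjusted p = 0.00519), S1pr1 by 2.20 (0.00547), Fads2 by 1.54 (0.0397), Pecam1 by 1.09 (0.0192), Snord17, a small nucleolar RNA, by 1.02 (0.00585), Ikbke, a kinase of the interferon pathway, by 0.94 (0.00547) and Rab26, a granule Rab, by 0.74 (0.0306). A shift can be a gain or a loss. Cyp2f2, Mgll and Ggt1 were lower in NOD.H-2b at all 3 ages, and Gm14135 was lower at all 3 ages and closest to BALB/c at 4M. Iglc1 was higher by 3.28 at 2M and 3.35 at 6M but by 0.57 at 4M on the log2 scale, and it has close copies that may share its reads. No gene was called from 4M to 6M by edgeR, with 2533 at an unadjusted p under 0.05 and 85 called by DESeq2. The mice of different ages are different animals.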

How the results depend on the processing

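The upregulated genes numbered 2575 to 2894 and the downregulated genes 779 to 906 with 1 mouse left out at a time. Downregulated genes fell from 837 to 464 with the epithelial list as the scale (3879 upregulated) and to 402 by glmTreat against a 2-fold change (1897 upregulated). The other alternatives gave 2665 to 3290 upregulated and 787 to 1001 downregulated genes, and no called gene changed sign in any of them. With the epithelial scale these list medians turned from negative to positive: secretagogue receptors (0.27), exocytosis (0.33), ER folding (0.24), myoepithelial cells (0.22), fatty acid synthesis (0.25), fatty acid oxidation (0.083), lipid droplets (0.17), TCA cycle (0.18), nuclear respiratory chain (0.28), mitochondrial genes (0.081), amino acids (0.16), secretory products (0.37), fluid secretion (0.41), collagen and matrix (0.28) and endothelium (0.38). The median of skeletal muscle, -0.82 over 4 genes, was 1.39 without a count filter, 1.41 in the fit of 18 mice and -0.92 to 2.10 with 1 mouse left out, and that of the salivary and Harderian list was 0.83 instead of -0.86 without a filter, where more members are tested. The number of genes whose strain difference changed from 2M to 4M was 320, or 963 by DESeq2 and 114 to 429 with 1 mouse left out, and from 4M to 6M it was 0, 85 and 0 to 203. The epithelial scale moves every log2 fold change up by about 0.41, so medians just below 0 turn positive by construction. The cause of the other changes was not tested.

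With the replicate number as a block, 2665 genes were upregulated and 787 downregulated at 4M, and 269 and 0 genes were called in the contrasts between ages. Among named genes, Hba-a1 (edgeR adjusted p = 0.0536) and Trib3 (0.0647) were not called with the block, and Il21 was (0.00170). Same-numbered mice did not deviate together, so the block is not a pairing.

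Depth limits the genes near 0. Il21, Ifng, Il6, S100a8 and Cxcl5 rest on few counts per mouse, and with 3 mice per strain the exact test of families could not go below 0.1.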
